A study of Mus musculus with 4 samples.

Results

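The cells described here are capillary endothelial cells of transplanted mouse hearts in which no transcript of the interferon-induced gene *Ifit1* was counted. They were chosen by their counts of unique molecular identifiers (UMIs), each UMI standing for 1 captured mRNA molecule. A cell had to have UMIs from over 200 genes, under 20% of its UMIs from mitochondrial genes, and at least 1 UMI each of *Cdh5*, the VE-cadherin gene, and *Cd300lg*, which marks capillaries. It had to have 0 UMIs of *Ptprc* (leukocytes), *Pdgfrb* (pericytes), *Gja5* (arteries), *Prox1* (lymphatics), *Npr3* (endocardium), *Mki67* (dividing cells) and *Ifit1*, and under 20 UMIs of the chemokine gene *Cxcl9*. This rule found 6515 cells, 14.6% (14.3 to 14.9) of the 44626 cells that passed the limits on genes and mitochondrial UMIs, out of 53824 deposited. *Cdh5* lies at chr8:104101625-104144511, *Cd300lg* at chr11:102041509-102055620 and *Ifit1* at chr19:34640871-34650009 (GRCm38). Since these counts chose the cells, the levels of the rule genes are not results.

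The cells came from 4 hearts placed in the abdomen of C57BL/6J recipients and collected on day 5, from male mice aged 8 to 10 weeks. In 2 allogeneic grafts the donor was BALB/c and in 2 syngeneic grafts it was C57BL/6J, and no genetic change or drug is named for either group. A graft holds donor cells and recipient cells that entered it, and the counts were not used to tell them apart. The deposited matrix merges the grafts as 4 libraries, told apart by the last digit of the cell barcode, and no label pairs a library with a graft. The matrix is therefore 1 pooled sample. Libraries are described 1 by 1, are not put in groups, and nothing was tested.

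Members numbered 1802, 2918, 1778 and 17 in libraries 1 to 4, which was 17.5% (16.7 to 18.2), 22.2% (21.5 to 22.9), 18.1% (17.3 to 18.8) and 0.150% (0.0877 to 0.241) of the cells that passed in each. Their median depth was 4177, 5642, 5775.5 and 3672 UMIs. Library 4 thus stands apart: it gave 11300 passing cells but 17 members, and a level in it rests on 79355 UMIs, of which 3 make 37.8 CPM, the unit explained next. Barcode sequences found in more than 1 library numbered 308, and 81 members carried such a barcode. Levels below are CPM: the UMIs of a gene scaled to 1e6 UMIs, summed over the cells named, with mitochondrial genes left out of the total. The kit counts 3′ ends, and no level was divided by gene length, so levels are compared for 1 gene at a time. Intervals in parentheses are exact 95% intervals (Poisson for levels, Clopper-Pearson for shares) and cover counting error only, not the spread between grafts.

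Capillaries of the heart carry fuel to muscle that lives largely on fatty acids. Their endothelial cells anchor lipoprotein lipase with Gpihbp1, take up the released fatty acids through Cd36 and move them with the binding proteins Fabp4 and Fabp5. The same cells pass water and gases through channels and carbonic anhydrases. When interferon reaches them, a receptor and Stat signal switches on antiviral genes such as the Ifit family and antigen presentation genes, and in a graft these cells are the surface that recipient leukocytes meet first.

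The rule removed unequal shares of the cells with both *Cdh5* and *Cd300lg*, which numbered 4224, 4685, 4027 and 372 in libraries 1 to 4. *Ifit1* took the most over all libraries, 3896 cells, or 45.6% (44.1 to 47.2), 8.69% (7.90 to 9.53), 32.4% (30.9 to 33.8) and 69.4% (64.4 to 74.0) of them by library. It was low in library 2 and high in library 4. *Cxcl9* at 20 UMIs or more removed 84.7% (80.6 to 88.2) in library 4 and at most 3.20% (2.69 to 3.77) in the others. *Ptprc*, the leukocyte gene, removed 41.9% (36.9 to 47.1) in library 4, 15.3% (14.3 to 16.3) in library 2, 9.26% (8.38 to 10.2) in library 3 and 4.83% in library 1. *Mki67* removed 9.24% (8.36 to 10.2) in library 3 and 7.26% (4.84 to 10.4) in library 4, against 0.947% (0.677 to 1.29) in library 1 and 1.07% in library 2. What was left was 42.7%, 62.3%, 44.2% and 4.57% of these cells.

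A rule that asks for 0 UMIs keeps shallow cells more often. In the shallowest quartile of the cells with *Cdh5* and *Cd300lg* in each library, 67.1%, 81.6%, 67.6% and 15.1% met the rule, and in the deepest quartile 12.1%, 42.4%, 15.9% and 0%. The share with an *Ifit1* UMI went the other way, from 16.6% in the shallowest to 43.6% in the deepest quartile over all libraries. Members are therefore cells in which *Ifit1* was not seen at their depth, not cells shown to lack it. In library 4, 0 of 93 cells in the deepest quartile met the rule, and even the shallowest quartile was below the deepest of library 2.

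**Figure D1:**
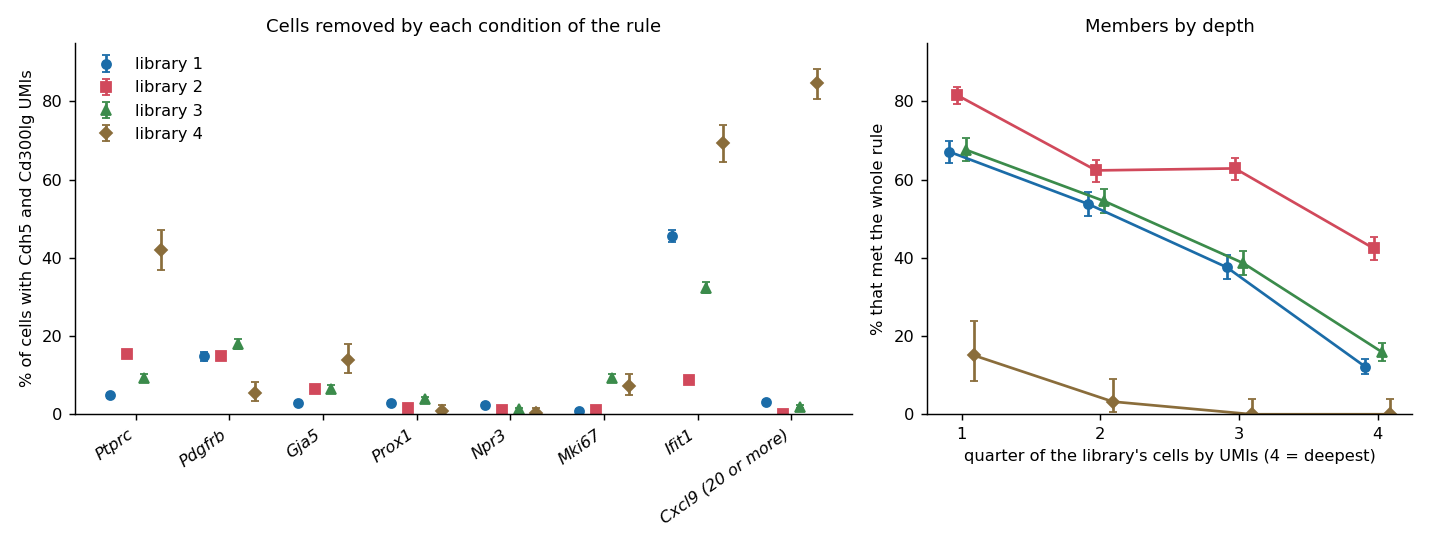
Left, the percentage of cells with both *Cdh5* and *Cd300lg* UMIs that each condition of the rule removed, by library, with exact 95% intervals; a cell can be removed by several conditions. Right, the percentage that met the whole rule in each depth quartile of the library's cells by UMIs: it was lower in the deepest than in the shallowest quartile of each library, for example 12.1% against 67.1% in library 1.

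Values on either side of the limits are given as a description. Cells that met all else but had 1 *Ifit1* UMI numbered 893, with *Ifit3* at 67.5 CPM against 22.7 in members. Members with 15 to 19 *Cxcl9* UMIs numbered 24, and 14 cells stood just outside with 20 to 24. Of the members, 22.1% had a single *Cd300lg* UMI, and their *Fabp4* was 15921 CPM against 25383 in members with more. The 2513 cells with 0 *Cd300lg* UMIs had *Fabp4* at 8781 CPM and *Dcn*, a fibroblast matrix gene, at 2551.

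Endothelial genes that the rule had not used were detected throughout. With *Cdh5* left out, 19 of 19 pan-endothelial genes exceeded 100 CPM, led by *Egfl7*, a secreted vessel factor, at 1426 CPM (1415 to 1436). *Pecam1*, an adhesion molecule of endothelial junctions, had 898, 922, 1076 and 769 CPM. *Cldn5*, a tight junction gene, had 659.7, 1451, 737 and 895 CPM, highest in library 2. Leukocytes, here the passing cells with *Ptprc* and without *Cdh5*, give the background share. *Pecam1* was seen in 92.7% of members and 24.1% of leukocytes at median depths of 5116 and 11492 UMIs, or in 61.4% and 4.33% once each cell was thinned at random to 1000 UMIs. *Tie1*, an endothelial receptor gene, was seen in 30.8% and 0.548% of thinned cells. The sum of the 19 genes was 11492, 12012, 13199.8 and 10787 CPM in libraries 1 to 4. Of them, 0 differed 4-fold between libraries 1 to 3, where 1.77% of all genes did (145 of 8202), a share at which 0 of 19 is no result about the list.

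With *Cd300lg* left out, 14 of 14 capillary genes exceeded 100 CPM as well. *Gpihbp1* (chr15:75596628-75599481) was seen in 75.9% of thinned members and 2.55% of thinned leukocytes, and *Car4* in 28.7% and 0.979%. *Fabp4* was seen in 99.7% of thinned members, but also in 21.8% of leukocytes. Of the markers of larger vessels, 4 of 13 arterial and 1 of 11 venous and endocardial genes exceeded 100 CPM, without *Gja5* and *Npr3*, which the rule sets to 0. *Gja4*, an arterial connexin, stood at 24.2 CPM (22.8 to 25.7), *Nr2f2*, the venous fate factor, at 52.0 CPM (49.9 to 54.1), and *Vwf*, high in large vessels, at 35.2 CPM (33.6 to 37.0). *Vwf* was seen in 10.0% of members and 11.2% of leukocytes, and in 2.84% and 1.29% once thinned, so the order of the shares turned with depth. Among pericyte genes, *Rgs5*, a regulator of G protein signals, was at 164 CPM (161 to 168) and *Kcnj8*, a channel gene, at 5.93 CPM (5.25 to 6.68). *Rgs5* was seen in 28.5% of members and 7.73% of leukocytes, or in 10.5% and 1.75% once thinned, and the part of pericyte RNA in this was not tested. *Hapln1*, an endocardial gene, had 0 UMIs, which allows up to 0.0652 CPM.

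The label calls these cells quiescent, a word that rests on the rule's absence of *Mki67* and *Ifit1*. Without *Mki67*, which the rule sets to 0, the cell cycle list held 21 genes. Of these, 5 exceeded 100 CPM: the cell cycle inhibitor genes *Cdkn1a* and *Cdkn1c*, the G1 cyclin genes *Ccnd1* and *Ccnd2*, and *Pcna*, a clamp of DNA replication. *Cdkn1a* led with 1175 CPM (1165 to 1185). Among genes of late division phases, *Top2a*, a topoisomerase, had 3.48 CPM (2.96 to 4.06) and *Cdk1*, the mitotic kinase, 3.28 CPM (2.78 to 3.85). Since the rule asks for 0 UMIs of *Mki67*, a gene of dividing cells, these levels are not independent of it. UMIs of stress and interferon genes were also counted in members, as described below, so they are called members or capillary cells without *Ifit1* here.

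RNA of other cell types was present in unequal amounts. Neutrophil genes summed to 41.9, 3211, 31.9 and 75.6 CPM in libraries 1 to 4, so library 2 alone was high. *S100a9*, an alarmin gene of neutrophils and the most abundant of the 6, had 21.7, 1419, 15.5 and 37.8 CPM. In library 2 just 0.103% of members had 0 UMIs of the list, against 81.9% in library 1 and 82.3% in library 3. The median member of library 2 had 0.199% of its UMIs in the list and the highest member 36.0%.

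The 5 erythroid genes summed to 13865, 3658, 5839 and 139 CPM, with *Hbb-bs*, a beta-globin gene, at 7319, 1917, 3188 and 75.6 CPM. The list was very uneven between cells: the median member of library 1 had 0.0458% of its UMIs in these genes and the highest 84.2%. The 9 cardiomyocyte genes summed to 1605, 381, 420.4 and 378 CPM, with *Myl2*, a ventricular myosin light chain, leading and highest in library 1. The 8 fibroblast genes summed to 1499, 686, 1770.4 and 289.8 CPM, with the actin-severing *Gsn* leading the list and *Col1a1*, a fibrillar collagen, at 99.6, 11.3, 227 and 50.4 CPM. The 9 macrophage and monocyte genes summed to 166, 270.5, 368 and 1109 CPM, led by lysozyme, *Lyz2*, and *Ptprc* was 0 by the rule. T, NK and B lymphocyte genes summed to at most 6.74 CPM in libraries 1 to 3, and 113 CPM in library 4 rested on 9 UMIs. The 9 pericyte genes summed to 181, 148, 329 and 25.2 CPM, the 6 smooth muscle genes to 176, 284, 205 and 101 and the 8 lymphatic genes to 150.0, 116, 97.7 and 88.2. Whether these transcripts came from free RNA or from cell pairs was not tested. Some of them are named below beside gene groups that moved with them, but not beside every such group.

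Among lipid uptake and handling genes, *Fabp4* (chr3:10204088-10208576) alone made up 2.42% of the members' UMIs. Its level was 21029, 28950, 18179 and 12034 CPM, highest in library 2 and lowest in library 4. *Cd36*, the fatty acid transporter, was also highest in library 2 and lowest in library 4, with 1906, 3709, 2280.5 and 1021 CPM. *Gpihbp1*, the anchor of lipoprotein lipase on the capillary wall, had 1451, 2567, 1400.5 and 1588 CPM. The lipase gene itself, *Lpl*, differed most of the 4, with 1455, 2665, 367 and 289.8 CPM.

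Of 24 list genes, 15 exceeded 100 CPM. Their sum, 33316, 43705, 30439 and 19054 CPM, was likewise highest in library 2. *Lpl* and *Angptl4*, a secreted inhibitor of the lipase, were the 2 of 19 genes that differed at least 4-fold between libraries 1 to 3, and both were highest in library 2. Over all genes 1.77% differed as much. *Angptl4* had 32.1, 261 and 81.4 CPM. That sum rests largely on *Fabp4*, and of 19 genes compared between libraries 1 to 3, 8 were highest in library 2, 6 in library 1 and 5 in library 3. *Cavin2*, a caveola coat gene, had 1116, 394 and 1079 CPM, and *Fabp5* had 905, 602 and 1355 CPM, both lowest in library 2. *Tcf15*, a transcription factor that with Meox2 drives fatty acid transport genes in heart capillaries, also was lowest there, with 602, 276 and 470.3 CPM. Between single members the sum of the list ran from 1.83% at the 10th percentile to 5.06% at the 90th in library 1, and from 1.98% to 7.33% in library 2.

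Transport genes split between libraries. The water channel *Aqp1* (chr6:55336432-55348555) had 2248, 1403, 995 and 63.0 CPM, so it was highest in library 1. The 63.0 CPM of library 4 rest on 5 UMIs. *Car4*, the carbonic anhydrase on the capillary surface, had 256, 730.3, 136 and 37.8 CPM and was highest in library 2. *Slc9a3r2*, a scaffold of ion transporters, and *Slc6a6*, the taurine transporter, varied less, with 751, 566 and 921 CPM and 504, 374 and 692 CPM. *Slc2a1*, the glucose transporter of the blood-brain barrier, was low at 36.2 CPM (34.5 to 38.0).

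Among vessel growth factor genes the apelin receptor differed most between libraries. *Flt1*, a VEGF receptor that holds back signalling, varied little, with 1358, 1349, 1447 and 1033 CPM. *Kdr*, the main signalling VEGF receptor, had 977, 512, 1266 and 769 CPM and was lowest in library 2. *Aplnr*, the apelin receptor, showed the widest spread of this list, with 374, 27.8, 537 and 0 CPM. The ratio of its highest to lowest level over libraries 1 to 3, with 10 CPM added to each, was 14.5. *Pgf*, a ligand of Flt1, ran the other way with 68.2, 342 and 34.9 CPM. *Vegfa* stood at 45.7 CPM (43.8 to 47.7) and *Apln*, the apelin gene, at 26.9 CPM (25.4 to 28.5).

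Of the Notch and BMP genes, *Id1* and *Id3*, targets of BMP signalling, led with 1453, 1199.7 and 829.7 CPM and 1377, 1015 and 908 CPM. *Notch1* differed little, with 257, 264, 274 and 328 CPM. *Klf2*, the flow-induced factor, had 2766, 1056, 1622 and 1890.2 CPM and was highest in library 1. *Nos3*, which makes nitric oxide, had 143, 149 and 110.1 CPM. *Edn1*, the endothelin gene, had 12.0, 74.2 and 30.9 CPM, and *Ptgs2*, the inducible cyclooxygenase, 7.34, 63.3 and 7.62 CPM, both highest in library 2. The neutrophil sum was high there too, at 3211 CPM, and its part was not tested.

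Basement membrane genes were high: *Sparc*, a collagen-binding matrix protein, had 2019, 3779.9, 4759.8 and 3150.4 CPM and *Col4a1*, a chain of type IV collagen, 1064, 2662, 3163 and 1966 CPM, both lowest in library 1. *Sparcl1*, a relative of *Sparc*, was lowest in library 2, with 1686, 194 and 1696 CPM, and its ratio of highest to lowest was 8.37. *Timp4*, an inhibitor of metalloproteinases, had 199.9, 755 and 75.1 CPM, a ratio of 8.99. *Col15a1*, a capillary basement membrane collagen, had 192, 151 and 621 CPM and was highest in library 3, the library where the fibroblast collagen genes were highest too.

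Of 10 coagulation genes tested, 4 differed 4-fold between libraries 1 to 3, against 1.77% of all genes. *Plaur*, the urokinase receptor, had 92.1, 507 and 105 CPM and *Thbs1*, thrombospondin 1, 22.1, 238 and 51.1 CPM, both highest in library 2. Neutrophil genes were high in library 2 too, at 3211 CPM in sum, and leukocytes also use both genes; the part of their RNA was not tested. *Thbd*, the anticoagulant thrombomodulin, was lowest there, with 261, 142 and 276 CPM. Of the leukocyte adhesion genes, *Icam1* took the most UMIs, with 521, 1262, 835 and 441 CPM. *Icam1* was seen in 38.6% of thinned members and 24.4% of thinned leukocytes, which use the gene too. *Vcam1*, a vessel ligand of integrins, was low in libraries 1 to 3 and higher in library 4, with 63.7, 89.5, 62.3 and 479 CPM. It was seen in 5.15% of thinned members and 4.30% of thinned leukocytes. The macrophage list was highest in library 4 too, at 1109 CPM, and its part was not tested. *Sele* and *Selp*, the endothelial selectins, stood at 13.5 CPM (12.5 to 14.6) and 39.1 CPM (37.3 to 41.0).

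**Figure D2:**
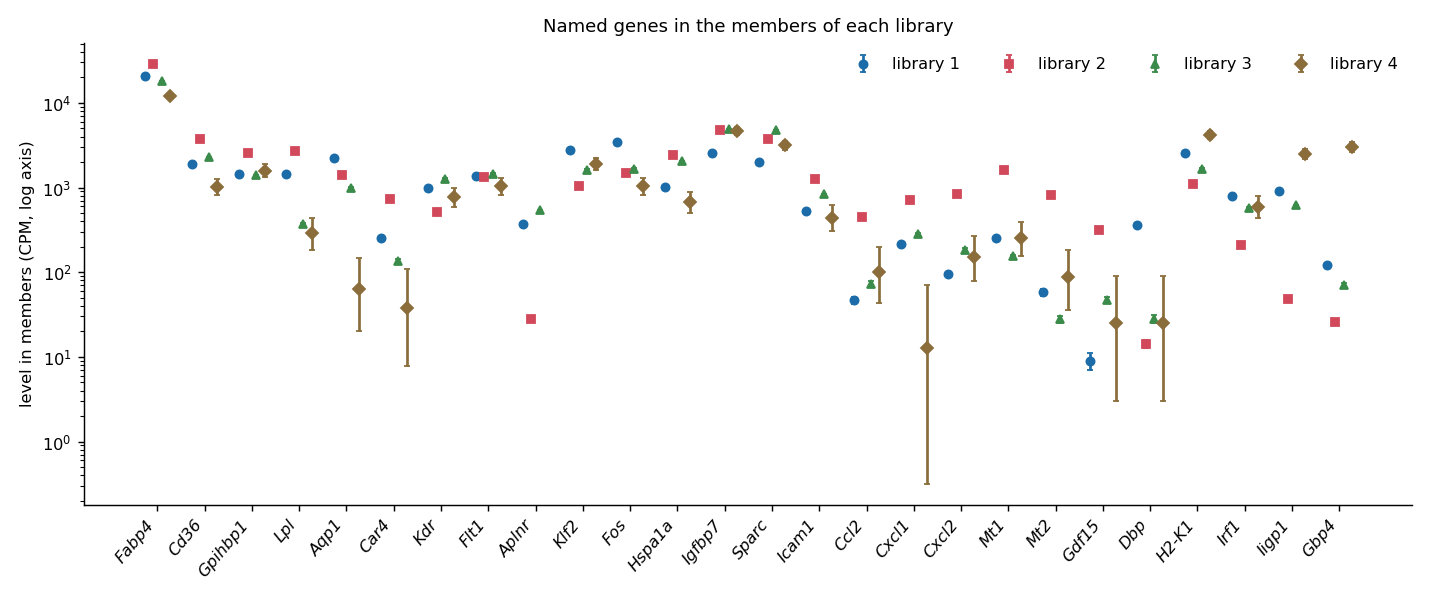
Levels of 26 genes in the members of each library (log axis, CPM), with exact 95% Poisson intervals that cover counting error only; library 4 rests on 17 cells, and *Aplnr* had 0 UMIs there and has no point. *Lpl*, *Ccl2*, *Cxcl2*, *Mt1*, *Mt2* and *Gdf15* were highest in library 2, *Dbp* and *Fos* in library 1, and *Gbp4*, *Iigp1* and *H2-K1* in library 4.

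Over all genes, 690 of 8199 compared (8.42%) differed at least 4-fold between the highest and lowest of the 4 libraries, with 10 CPM added to each. The count was 1752 with 1 CPM added, 2587 with cells thinned to 1000 UMIs and 1213 with 2 UMIs of *Cdh5* and *Cd300lg* required. Without library 4 it was 145 of 8202 (1.77%): library 2 was the highest for 75 of these, library 1 for 46 and library 3 for 24. The lists held 3 of 3 neutrophil genes, 5 of 12 metallothionein and glucocorticoid genes, 5 of 16 chemokine and cytokine genes and 7 of 21 interferon-gamma response genes among the 145. They also held 4 of 9 cardiomyocyte, 3 of 8 fibroblast and 3 of 14 capillary genes.

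After the neutrophil genes *S100a9*, *S100a8*, *Lcn2* and *Retnlg*, genes among the 20 widest ratios included chemokine and stress genes that were high in library 2. *Cxcl3* and *Cxcl5*, neutrophil attractants, had 0.547, 325 and 4.62 CPM and 2.96, 306 and 4.10 CPM. *Mt1* and *Mt2*, the metal-binding metallothioneins, had 254, 1616 and 154 CPM and 57.6, 823 and 27.8 CPM. *Gdf15*, a stress cytokine, had 8.87, 319 and 46.9 CPM, and *Timp1*, a metalloproteinase inhibitor, 9.31, 283 and 54.1 CPM.

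Other chemokine genes were also highest in library 2. *Ccl2*, the monocyte attractant, had 46.9, 454, 73.0 and 101 CPM, *Cxcl1* had 214, 709.9, 282 and 12.6 CPM and *Cxcl2* 95.2, 846, 184 and 151 CPM. *Fkbp5*, a glucocorticoid target, was also highest in library 2, with 22.4, 188 and 18.3 CPM. *Cxcl12*, a chemokine that vessels make at rest, was steadier, with 1081, 937, 1743 and 1865 CPM. Library 2 is also where neutrophil RNA was high, and some of these genes, such as *Cxcl2*, *Cxcl3* and *Il1b*, are used by neutrophils as well. The part of that RNA in these levels was not tested. *Dbp*, a clock output gene, was highest in library 1, with 363, 14.3 and 28.0 CPM.

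Members of 1 library differed from each other most in haemoglobin genes. With members thinned to 1000 UMIs, the variance over the mean, which is 1 for counting noise alone, had a median of 1.04 over 2827 genes, and 103 genes exceeded 1.5 and 48 exceeded 2 as the median of libraries 1 to 3. *Hbb-bs* had 207, the matrix inhibitor of calcification *Mgp* 5.95, the heat shock gene *Hspa1a* 5.31, *Fabp4* 5.02, the pericyte gene *Rgs5* 3.26, *Mt1* 3.19 and *Jun* 3.19. The endothelial gene *Pecam1* lay near 1, at 1.12.

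Immediate early genes, which cells switch on within minutes of a stimulus, were high and uneven. All 13 exceeded 100 CPM. *Junb* had 4385, 2673, 2837 and 1311 CPM, *Fos* 3406, 1489, 1667 and 1033 CPM and *Egr1* 3441, 954, 1379 and 605 CPM, each highest in library 1 and lowest in library 4. Single members of library 1 ran from 0.332% of UMIs in these 13 genes at the 10th percentile over a median of 2.12% to 5.47% at the 90th. In library 3 the same values were 0.232%, 1.34% and 3.26%. Members of 1 library thus differed widely in these genes. The erythroid and cardiomyocyte sums were also highest in library 1, at 13865 and 1605 CPM, and their part was not tested. Heat shock genes were highest in library 2, with *Hspa1a* at 1004, 2441, 2060.1 and 668 CPM and the constitutive *Hspa8* at 2354, 3233, 2295 and 2243 CPM. Hypoxia and glycolysis genes summed to 2699, 4235, 3452 and 5419 CPM, and the 14 junction and barrier genes other than *Cdh5* to 5324, 6047, 5544 and 4826.

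**Figure D3:**
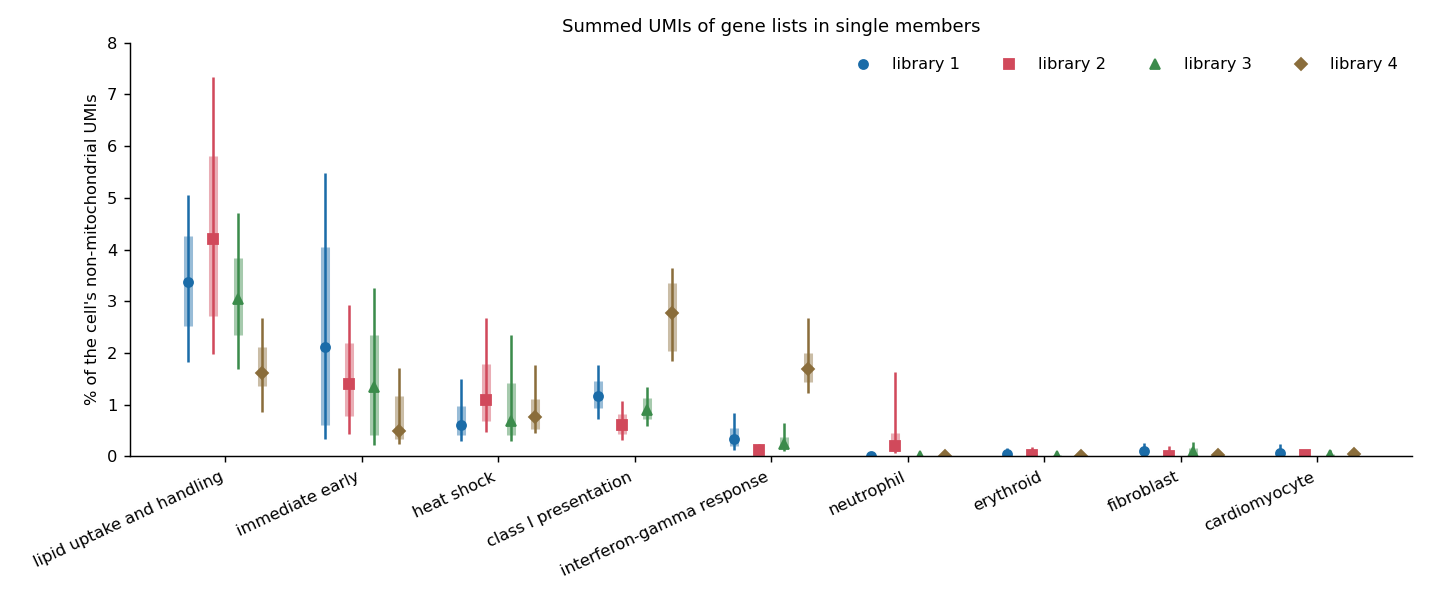
Summed UMIs of 9 gene lists as a percentage of each member's non-mitochondrial UMIs, by library: the symbol is the median, the thick bar the middle 50% of cells and the thin line the 10th to 90th percentile. Immediate early genes were the most uneven between cells in library 1, neutrophil genes were above 0 at the median in library 2, and class I genes were highest in library 4; the interferon-gamma list here includes *Cxcl9*, which the rule limits.

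UMIs of interferon-response genes were counted in members, in part at shares no higher than in leukocytes. *Irf1* was seen in 28.7% of thinned members and 29.5% of thinned leukocytes, *Gbp4* in 6.40% and 21.6% and *Cxcl10* in 5.28% and 37.7%. Leukocytes use these genes too, so their share is not a background level for them. These shares therefore do not tell the members' own RNA from that of other cells. They also pool all libraries, and library 4 gave just 17 members. Of the interferon-gamma list, *Irf1*, the transcription factor, had 786, 211, 576 and 592 CPM. *Iigp1*, an immunity-related GTPase, had 899, 48.1, 614 and 2483 CPM, a 15.7-fold ratio over libraries 1 to 3 with 10 CPM added. *Gbp4*, a guanylate-binding protein, had 122, 25.5, 70.0 and 3012 CPM. In libraries 1 to 3 these were highest in library 1, next in library 3 and lowest in library 2. Of the genes at 10 CPM or more, that order held for 15 of 21 in this list and 12 of 20 in the type I list, against 28.4% of all genes. It also held for 5 of 5 erythroid and 4 of 9 cardiomyocyte genes, and both of these sums followed it. The median member did not follow it, with 0.0458%, 0.0200% and 0% of UMIs in the erythroid list in libraries 1 to 3. For the cardiomyocyte list the medians were 0.0671%, 0.0222% and 0.0218%. The part of other cells' RNA was not tested.

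The sum of the 28 interferon-gamma genes found, *Cxcl9* left out, was 4047, 1381, 3008 and 16470.3 CPM, and that of the 24 type I genes found, *Ifit1* left out, 2205, 833, 1917 and 3679.7 CPM. *Rsad2*, the antiviral viperin, had 386, 49.8, 300.3 and 126 CPM and *Isg15*, a ubiquitin-like modifier, 239, 29.7, 68.6 and 63.0 CPM. In library 4 these rest on 10 and 5 UMIs. There, 17 of 21 interferon-gamma and 15 of 20 type I genes were highest, against 34.4% of all genes, and the macrophage and lymphocyte lists were highest too, at 1109 and 113 CPM, whose part was not tested. Receptor genes were steadier: *Ifngr1* had 268, 334, 269.6 and 214 CPM and *Ifnar2* 118, 88.4, 126 and 151 CPM. Both sums were lowest in library 2.

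Of 19 class I antigen presentation genes at 10 CPM or more, 16 kept that order in libraries 1 to 3, as did 28.4% of all 8212 such genes. It was also kept by 5 of 5 erythroid, 4 of 9 cardiomyocyte and 9 of 13 immediate early genes. The erythroid share of the median member did not keep it, at 0.0458%, 0.0200% and 0% in libraries 1 to 3. The part of other cells' RNA in this order was not tested. In the 17 cells of library 4, 19 were highest, against 34.4% of all genes. *H2-K1* had 2525, 1097, 1674 and 4184 CPM, *B2m*, the light chain of class I molecules, 1995, 1019, 1957 and 5053 CPM, *Tap1*, a peptide transporter, 118, 28.8, 80.7 and 479 CPM and *Psmb8*, an immunoproteasome subunit, 360.3, 138, 249.5 and 1575 CPM. The reads were aligned to the C57BL/6J reference and the H2 genes differ between mouse strains and among near copies, so levels of single H2 genes are uncertain. Class II genes were low in libraries 1 to 3: *Cd74*, the invariant chain, had 55.4, 17.2, 63.1 and 1449 CPM and *H2-Ab1* 37.1, 7.13, 31.6 and 630.1 CPM. *Cd74* was seen in 5.36% of thinned members against 68.3% of thinned leukocytes. In the 17 members of library 4 the macrophage list was also higher, at 1109 CPM, and its part in the class II level was not tested.

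Members were set beside arterial cells, which met the same zeros but had at least 1 *Gja5* UMI and any *Cd300lg*. There were 50, 179 and 133 arterial cells in libraries 1 to 3, with 9 in library 4, which was left out. Over all libraries, 213 of the 371 arterial cells also had *Cd300lg* UMIs. Of these, 140 had a single *Gja5* UMI. Their *Fabp4* was 23706 CPM against 24153 in members, and their *Gja4* 178 against 24.2, so the arterial cells include cells with capillary genes. A gene was counted when it was at least 2-fold in the same direction in each of the 3 libraries, with 10 CPM added to both levels. Of 8557 genes, 17 (0.199%) were higher in members and 82 (0.958%) lower. Since *Cd300lg* and *Gja5* chose the cells, these are descriptions. A gene had to pass in each library used, so leaving 1 out removes a condition and can raise both counts. The first was 47 without library 2, 46 without library 3 and 75 with cells thinned to 1000 UMIs, and the second was 135 without library 2.

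The genes higher in members were led by transport genes. *Car4* had 256, 730.3 and 136 CPM in members, with log2 ratios of 3.02, 1.51 and 2.07. Its level over all arterial cells was 134 CPM, which pools the libraries, whereas each ratio uses the arterial level of its own library. *Aqp1* had 2248, 1403 and 995 CPM against 412, 332 and 272 CPM, a log2 ratio of 2.42, 2.05 and 1.83. Others among them were *Fmo1* and *Fmo2*, flavin monooxygenases, *Trp53i11*, *Car8*, *Rcsd1*, xanthine dehydrogenase (*Xdh*) and *Nrp2*, a co-receptor for VEGF and semaphorins. Of 21 lipid genes, 0 reached the limit in all libraries. Over all genes 0.199% did, a share at which 0 of 21 is no result about the list. The lipid list had a median log2 ratio of 0.53 against 0.01 over all genes. *Fabp4* had log2 ratios of 1.87, 0.22 and 0.75 and *Gpihbp1* 2.39, 0.69 and 0.81.

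The genes lower in members held 7 of 12 arterial list genes tested, with a list median of -2.06. *Fbln5*, an elastic fibre gene, had 27.4, 49.1 and 45.4 CPM in members and 577, 578 and 873 CPM in arterial cells, log2 ratios of -3.97, -3.31 and -3.99. *Mgp* had log2 ratios of -4.47, -4.60 and -2.07, *Gja4* -4.06, -3.37 and -2.88 and *Sema3g*, a semaphorin of arteries, -3.56, -2.51 and -3.42. *Igfbp4*, *Clu*, *Htra1*, *Pcsk5*, *Vegfc* and *Gkn3* completed the 10 lowest, and *Vwf*, *Edn1*, *Jag1*, *Hey1*, *Fn1* and *Col18a1* were counted too. The pericyte list was also lower in members, at 181, 148 and 329 CPM against 274, 223 and 727 in arterial cells. Of its 3 genes tested, 0 were counted, and the part of pericyte RNA was not tested. With cells thinned to 1000 UMIs, 8.94% of members and 55.7% of arterial cells had UMIs of at least 3 of 13 arterial genes, *Gja5* left out.

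Members were then set beside the 2310 capillary cells that met the same rule but had at least 1 *Ifit1* UMI (1307, 266, 725 and 12 in libraries 1 to 4). Median depths in libraries 1 to 3 were 6023, 8643.5 and 8776 UMIs in these cells against 4177, 5642 and 5775.5 in members. Of 8364 genes, 0 were 2-fold higher in members in all 3 libraries and 4 (0.0478%) were lower. The lower count was 7 without library 3 and 8 with cells thinned to 1000 UMIs. All 4 are interferon-induced antiviral genes: *Ifit2* and *Ifit3*, relatives of *Ifit1*, *Isg15*, and *Oasl1*, of the oligoadenylate synthetase family. Since *Ifit1* chose both groups, levels of genes induced with it are not independent of the rule, and these are descriptions. The median log2 ratio of the capillary list was -0.0047.

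*Ifit3* had 45.2, 9.55 and 29.3 CPM in members and 138, 97.1 and 132 CPM in cells with *Ifit1*, log2 ratios of -1.42, -2.45 and -1.85. *Ifit2* had 39.3, 6.22 and 30.0 CPM against 185, 41.6 and 107 CPM, log2 ratios of -1.98, -1.67 and -1.55. *Isg15* had 239, 29.7 and 68.6 CPM against 658, 142 and 174 CPM, log2 ratios of -1.43, -1.94 and -1.23. All 3 were lower in members in each of libraries 1 to 3. In library 4, with 17 members and 12 *Ifit1* cells, *Ifit3* had 151 CPM in members and 112 in *Ifit1* cells. *Cxcl10* had log2 ratios of -1.57, -0.52 and -1.39 and *Iigp1* -1.03, -1.18 and -0.94, so each missed the limit in 1 library. The list medians were -0.71 for type I and -0.57 for interferon-gamma genes, against 0.04 over all genes. *Ifit1* cells near the limit, with 1 UMI, had *Ifit3* at 67.5 CPM, between members and the 163 CPM of cells with more.

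The promoters of *Ifit1* and of 2 of the 4 lower genes are shown because they hold matches to an interferon-response motif. *Ifit2* and *Oasl1* had none and are not printed. The 160 bases before the start of transcription are given on the gene's strand from RefSeq (GRCm38.p6), whose start can differ from the gene coordinates given above, which are from GENCODE, with matches to GAAA, any 2 bases and GAAA again, or on the other strand TTTC, any 2 bases and TTTC, in capitals.
Ifit1, chr19:34640729-34640888, plus strand: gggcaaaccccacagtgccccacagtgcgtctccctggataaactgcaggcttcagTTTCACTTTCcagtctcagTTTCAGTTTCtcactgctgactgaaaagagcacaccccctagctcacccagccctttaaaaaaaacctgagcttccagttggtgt
Ifit3, chr19:34583369-34583528, plus strand: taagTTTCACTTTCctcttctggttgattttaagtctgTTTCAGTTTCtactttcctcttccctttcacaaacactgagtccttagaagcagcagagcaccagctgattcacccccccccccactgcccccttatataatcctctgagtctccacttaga
Isg15, chr4:156200819-156200978, minus strand: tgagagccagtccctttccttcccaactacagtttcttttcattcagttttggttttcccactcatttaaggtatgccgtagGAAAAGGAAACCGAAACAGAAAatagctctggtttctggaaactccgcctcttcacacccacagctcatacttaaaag
These letters are the core of the interferon-stimulated response element. Within 250 bases before and 50 after the start, they were found in 1079 of 27025 promoters (3.99%). *Ifit1* had 2 matches, *Ifit3* 2 and *Isg15* 3, which overlap, and *Ifit2* and *Oasl1* had 0. Among the genes with a promoter in the table, the letters were in 11 of 20 of the type I list, 11 of 22 of the interferon-gamma list and 5 of 18 of the class I list. The lists outside interferon response and antigen presentation had 0 to 2 genes with a match each, for example 2 of 11 arterial and 0 of 14 lipid genes, too few to set against the share over all promoters. A second motif, TTCNNNGAA, the core bound by Stat dimers, was in 9.55% of all promoters and in 10 of 22 of the interferon-gamma list. It was also in 6 of 20 of the type I list and 3 of 9 of the metallothionein and glucocorticoid list. The other lists had 0 to 2 genes with it each. A match is a description of the sequence, not a site of binding.

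**Figure D4:**
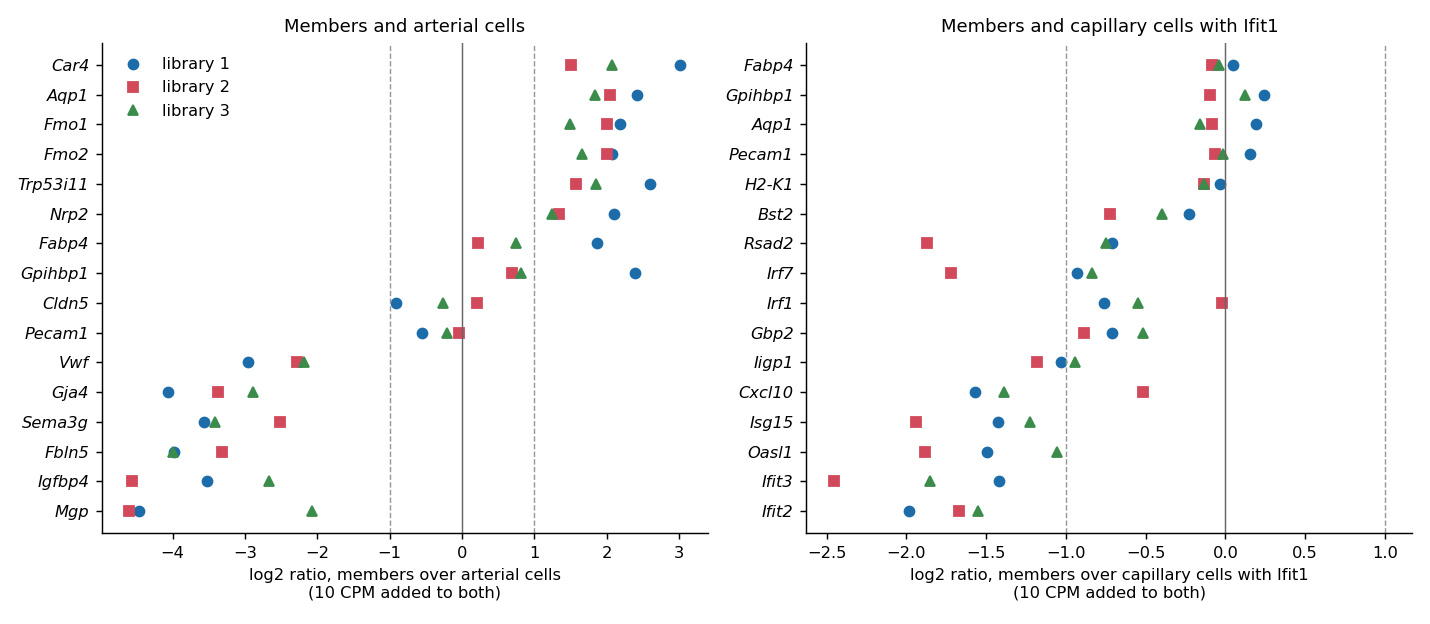
Log2 ratio of levels in members to those in arterial cells (left) and in capillary cells with *Ifit1* (right), 1 point per library for libraries 1 to 3, with 10 CPM added to both levels; dashed lines mark 2-fold. *Car4* and *Aqp1* lie above 2-fold and *Mgp*, *Fbln5* and *Gja4* below it in each library on the left, and *Ifit2*, *Ifit3*, *Oasl1* and *Isg15* lie below it on the right.

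*Cxcl9*-rich cells had *Cdh5*, *Cd300lg*, at least 20 *Cxcl9* UMIs, any *Ifit1* and the rule's other zeros. They numbered 105, 2, 37 and 147 in libraries 1 to 4. Library 1 alone had 50 of both kinds, so this comparison rests on 1 library. Of 8401 genes, 39 (0.464%) were at least 2-fold higher in members and 111 (1.32%) lower. These counts move with the settings: 245 were higher with 1 CPM added in place of 10, and with cells thinned to 1000 UMIs 1188 were higher and 327 lower. The lower genes held 24 of 28 interferon-gamma genes, with a list median of -1.57 against 0.13 over all genes, and 12 of 22 type I genes. *Cxcl9*, a gene of the interferon-gamma list, split the cells, and the rule sets *Ifit1* to 0 in members only. Levels of genes induced with these 2 are therefore not independent of the rule, and the counts are descriptions. *Cxcl10*, a chemokine that shares a receptor with Cxcl9, had 153 CPM in members and 2128 in *Cxcl9*-rich cells of library 1. *Gbp2* had 159 and 983, and *Vcam1* 63.7 and 253.

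The 39 higher genes were partly markers of other cells, with 6 of 9 cardiomyocyte and 5 of 8 fibroblast genes. The cardiomyocyte list summed to 1605 CPM in members of library 1 and 712 in its *Cxcl9*-rich cells. The median depths were 4177 and 11884 UMIs, and the part of this RNA in the count was not tested. *Cxcl12* was higher in members as well, with a log2 ratio of 1.04.

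*Cxcl9* also varied within the rule. Of the members, 5066 had 0 UMIs, 1197 had 1 to 4 and 252 had 5 to 19, and in library 4 all 17 had at least 1. Deeper cells had more: median depths were 4774.5, 6509 and 7985.5 UMIs. Setting 5 to 19 beside 0 in libraries 1 and 3, which had at least 50 cells of both, 4 of 8549 genes (0.0468%) were at least 2-fold higher and 12 (0.14%) lower. This division was added after the counts had been seen. Since *Cxcl9* chose both groups, levels of genes induced with it are not independent of the division.

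The 4 were *Cxcl10*, *Cxcl2*, *Neurl3* and *Pfkfb3*, an activator of glycolysis. *Cxcl10* was 75.5 CPM with 0 and 634 with 5 to 19 *Cxcl9* UMIs in library 1, and 67.7 and 474 in library 3. *Iigp1* went from 742 to 1371 CPM in library 1 and from 509 to 1073 in library 3, so it passed 2-fold in library 3 but not in library 1. *H2-K1* went from 2393 to 2934 and from 1589.7 to 1869. *Isg15* went from 208 to 339.8 and from 55.2 to 134. The list median was 0.49 for interferon-gamma genes and 0.13 for type I genes, against -0.08 over all genes.

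The 12 lower genes held *Fbln5* and *Stmn2* of the arterial list, *Edn1*, the matrix genes *Fn1*, *Mgp*, *Col8a1* and *Col18a1*, *Clu*, *Tgfb2* and complement *C3*. The last pair were *Myh11*, a smooth muscle myosin, and *Pf4*, a platelet and macrophage chemokine. The 8 fibroblast genes had a median log2 ratio of -1.30 with 0 counted, and the part of other cells' RNA in these differences was not tested. *Fbln5* had log2 ratios of -1.47 in library 1 and -1.68 in library 3, and *Edn1* of -1.38 and -1.57. Of the capillary genes, *Fabp4* was 20822 and 20013 CPM in library 1, and *Gpihbp1* 1409.7 and 1440.3. The capillary list had a median log2 ratio of 0.01.

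**Figure D5:**
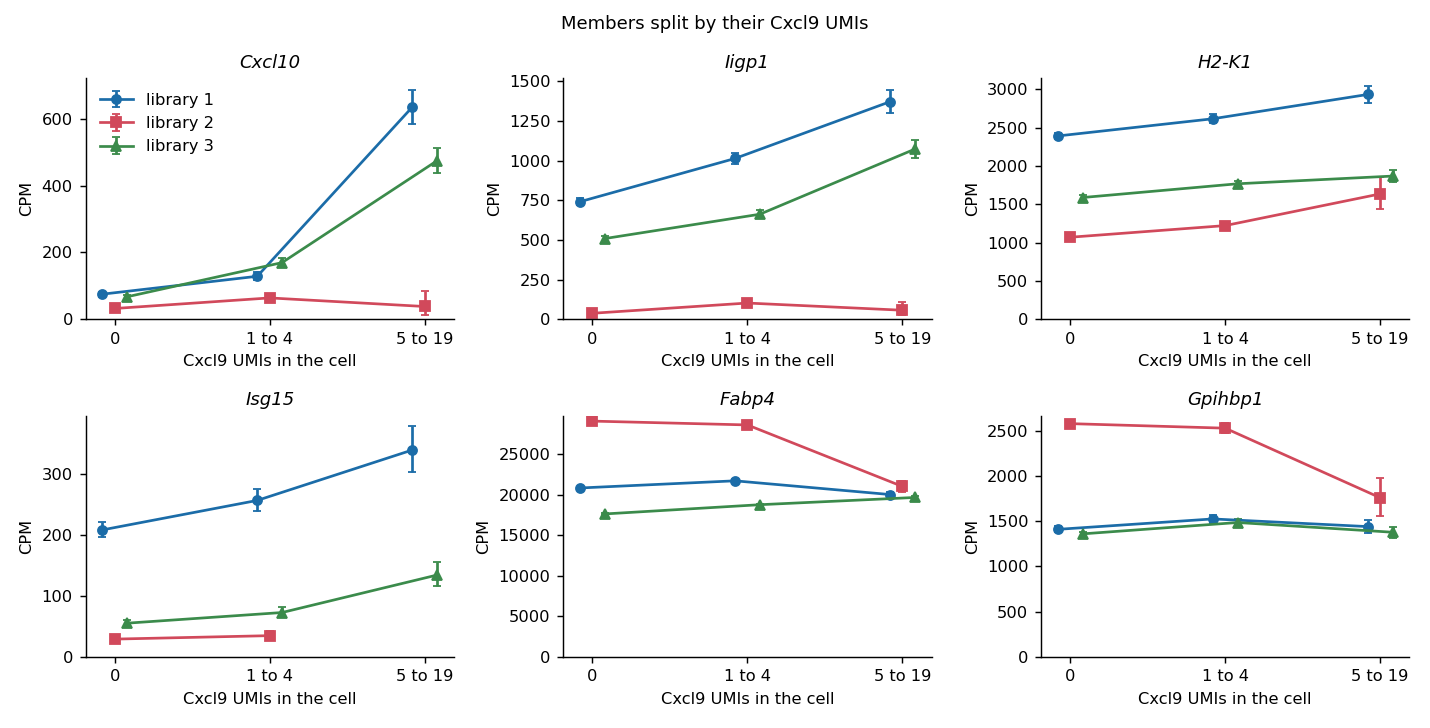
Levels of 6 genes (CPM, with exact 95% Poisson intervals) in members with 0, 1 to 4 and 5 to 19 *Cxcl9* UMIs in libraries 1 to 3; the 5 to 19 group of library 2 holds 10 cells, and *Isg15* had 0 UMIs there and has no point. *Cxcl10* was higher with more *Cxcl9* in libraries 1 and 3, at 634 against 75.5 CPM in library 1, while *Gpihbp1* was nearly level in library 1.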

How the data were processed

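The authors made single-cell libraries (Chromium Single Cell 3′ V3) from 4 grafts and processed them with CASAVA 1.8 and Cell Ranger against mm10. The deposited file holds whole-number UMI counts of 30905 genes in 53824 cells, 516154088 in all, with 7139 genes at 0. The authors also used Seurat, and no cell annotation was used here. Depth per library is given in the text; 1 UMI in members equals 0.0217 CPM over all libraries and 12.6 CPM in library 4.

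The rule was applied to these counts. A gene was compared where it reached 10 CPM in either group, and counted when at least 2-fold in 1 direction in every library with 50 cells of both kinds, with 10 CPM added to each level. Between libraries 4-fold was used. With 1 pooled sample there were no replicates and no tests. Thinning drew 1000 UMIs per cell once (seed 20) and left out shallower cells. Simulated doublets (50 neighbours, 2000 genes, 10 components) marked the top 5% of cells per library, 191 members among them, which were kept in the main values. The share of 5% was set and not estimated.

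The members and the 32 gene lists (425 genes, 422 found) were chosen with earlier results of these data known. Besides list genes, genes could be named by rank from the 20 most abundant, the 10 highest and 10 lowest ratios in each comparison, the 20 widest between libraries and the 15 largest variances over means, leaving out rule, mitochondrial and ribosomal protein genes and numbered gene models. Many genes that this rule selects are not named here. *Pf4* and *Myh11* were named after their values were seen. The division by *Cxcl9* UMIs and the count over libraries 1 to 3 were added after seeing the data. Counts of 8202 genes were simulated for members and arterial cells, with 200 changed 4-fold. Of these, 98% of the higher and 62% of the lower genes were recovered. Of the unchanged genes, 0 were counted, and 94.8% of intervals held the true level. The simulated profiles did not vary between cells or libraries beyond counting. The simulation therefore checks the calculation, not how calls or intervals hold in cells that vary. Intervals came from scipy 1.17.1 and doublet scores from scikit-learn 1.9.0, run with numpy 2.4.6 and pandas 2.3.3 in Python 3.11.15, and figures from matplotlib 3.10.9.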

Additional observations from a re-analysis of the deposited data

How the results depend on the processing

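The share of members among passing cells, 14.6%, was 15.3% with over 500 genes per cell, 14.2% with mitochondrial UMIs under 10%, 10.7% with 2 UMIs of *Cdh5* and *Cd300lg* and 11.4% with 0 UMIs of *Cxcl9*. Leaving out 1 library gave 11.4% (library 2) to 19.5% (library 4). With 1 CPM added, genes higher and lower than in arterial cells numbered 47 and 157 against 17 and 82, genes lower than in *Ifit1* cells 7 against 4, genes higher than in *Cxcl9*-rich cells 245 against 39, and genes 4-fold between libraries 1752 against 690. Thinned to 1000 UMIs, the counts were 75 higher than in arterial cells, 8 lower than in *Ifit1* cells, 1188 higher and 327 lower than in *Cxcl9*-rich cells, and 2587 between libraries. With 2 UMIs of both rule genes the last count was 1213. Leaving out 1 library gave 17 to 47 genes higher (47 without library 2, 46 without library 3) and 82 to 135 lower (135 without library 2) than in arterial cells, 0 to 1 higher (1 without library 1) and 4 to 7 lower (7 without library 3) than in *Ifit1* cells, and 145 to 611 between libraries (145 without library 4). Leaving out 1 of libraries 1 to 3 also removes a condition of the counts against arterial and *Ifit1* cells, which can raise them. The cause of these differences was not tested.

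The *Cxcl9*-rich comparison without library 1 was not run, since no other library held 50 cells of both kinds. Without library 2, 3 of 32 list sums and 19 of 50 gene levels moved by over 1.5 times, among them *S100a9* at 18.1 CPM, *Mt1* at 194 and *Lpl* at 801. With libraries weighted equally, 7 list sums and 17 genes did. Thinning to 1000 UMIs moved the neutrophil and erythroid sums past 1.5 times, to 2455 and 4039 CPM, and *Hbb-bs* and *Cd74*, to 2157 and 62.8. Without library 1 the cardiomyocyte sum and *Isg15* moved as much, and without library 3 *Aplnr* and *Sparcl1*. With 0 UMIs of *Cxcl9*, *Cxcl10* did, at 47.9 CPM. Leaving out cells marked as doublets moved 0 of 32 and 0 of 50 past 1.5 times. No paired analysis was possible because no label pairs a library with a graft and no result comes from a test. Depth limits library 4 most, where 3 UMIs make 37.8 CPM.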
